A study of Equus caballus with 2 samples.

Results

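In a sarcoid of horse 1, 4199 CpGs had a DNA methylation level at least 50 percentage points below the level of the same CpG in tumour-distant skin of that animal. A CpG is a C followed by a G on 1 DNA strand, and its level is the percent of sequenced reads that show it as methylated, with both strands merged. These CpGs, called losing CpGs below, were chosen by this difference among the 583026 CpGs read 20 or more times in each library, out of 1263512 CpGs listed in either. They made up 0.720% of the CpGs compared, and 1.68% of the 250349 CpGs at 50% or more in skin, which had room for such a difference. In the opposite direction, 1717 CpGs were at least 50 points higher in the sarcoid, which was 0.294% of the CpGs compared and 0.725% of those at 50% or more in the sarcoid. There were thus 2.45 losing CpGs for each such gaining CpG.

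The study compared 1 library of sarcoid tissue with 1 library of tumour-distant skin, both stored frozen as tissue and taken from horse 1. Methylation was read by reduced representation bisulfite sequencing, in which DNA is cut at CCGG sites, short fragments are kept, and bisulfite turns unmethylated cytosines into bases read as T. The sarcoid library held 35970547 reads summed over cytosines, with a median of 24 per CpG, and the skin library 48650606, with a median of 30. With 1 library per tissue and 1 horse there is no replicate check. The values describe these 2 libraries, and no test was run on a difference that had chosen the CpGs. A level is an average over the cells and the parental copies in a piece of tissue, so a change of methylation within cells and a different mix of cells cannot be told apart. The tissues were not checked against marker genes, since no gene annotation of the files' build was used here.

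Methylation of CpGs is copied onto the new strand after DNA replication by the maintenance methyltransferase DNMT1, and it is lost when copying fails over divisions or when TET enzymes oxidise it. CpGs within a short distance of each other tend to share their state. Stretches dense in CpGs, such as many promoters, are mostly unmethylated in mammals, and scattered CpGs are mostly methylated. Tumours commonly lose methylation at many scattered CpGs. Equine sarcoid grows from skin fibroblasts and carries bovine papillomavirus in most cases, which is background and was not measured here.

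Losing CpGs were partly methylated in the sarcoid and mostly methylated in skin, and few were empty in the sarcoid. Their median level was 24.1% in the sarcoid (25th to 75th percentile 16.7% to 31.6%) and 81.8% in skin (73.9% to 88.7%). The limit itself keeps them at 50% or less in the sarcoid and 50% or more in skin. Gaining CpGs showed the mirror pattern, with medians of 28.4% in skin and 84.4% in the sarcoid, and 9.55% of them were at most 10% in skin. All CpGs at 50% or more in skin had a median skin level of 85%. In the sarcoid 46 of the 4199 had no methylated read, which is 1.10% (Wilson 95% interval 0.822 to 1.46). A sarcoid level of at most 10% was seen at 454 (10.8%), a level above 10% and up to 30% at 2511 (59.8%), and a higher one at 1234 (29.4%). In skin 75 CpGs (1.79%) were methylated in every read. No CpG (0 of 4199, with a Wilson upper bound of 0.0914%) combined a sarcoid level of at most 10% with at least 90% in skin. A complete switch between the tissues was therefore not seen at this limit, and 265 CpGs (6.31%) had at most 20% in the sarcoid and at least 80% in skin.

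**Figure D1:**
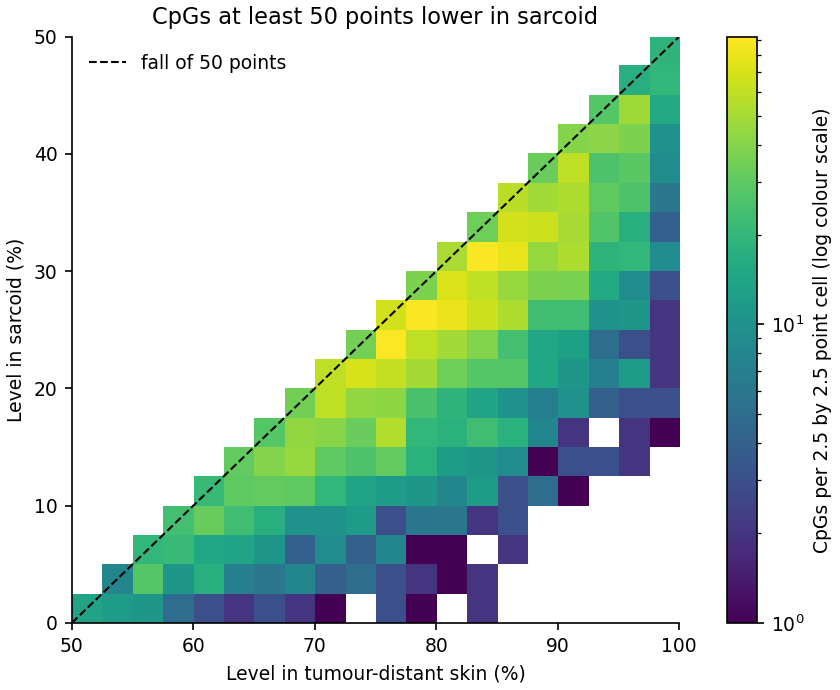
Levels of the 4199 losing CpGs in the sarcoid (vertical axis, %) and in tumour-distant skin (horizontal axis, %), with the number of CpGs per cell on a log colour scale; the dashed line marks a difference of 50 points. Most CpGs lie just under the line, around the medians of 24.1% in the sarcoid and 81.8% in skin, and the corner of low sarcoid and full skin levels is empty.

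The size of the difference lay near the limit for most of them. The median difference was -55.4 points, 2001 CpGs (47.7%) were within 5 points of the limit, and 175 (4.17%) were lower by at least 70 points. Just inside the limit was a CpG of chromosome 7 at 81270433 to 81270434, with 35.1% of 74 reads in the sarcoid and 85.1% of 74 reads in skin. Another, on chromosome 21 at 2777826 to 2777827, had 26.4% of 72 reads in the sarcoid and 76.4% of 72 in skin. Just outside it were a CpG of chromosome 21 at 53775205 to 53775206 (29.03% of 62 sarcoid reads and 79.0% of 81 skin reads) and a CpG of chromosome 7 at 960191 to 960192 (27.6% of 29 sarcoid reads and 77.6% of 49 skin reads). The 95% interval of the difference by Newcombe's method ran from -61.8 to -35.0 points at the first and from -65.9 to -27.4 points at the last of these, so the intervals on either side of the limit overlapped widely. Positions are those of the deposited files, whose genome build is not given in the sources used here.

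The CpGs with the largest differences include a pair beside each other. On chromosome 12 the CpGs at 9289968 to 9289969 and 9289981 to 9289982 had no methylated read among 20 in the sarcoid, against 84.1% of 44 and 83.7% of 43 reads in skin. A count of 0 in 20 reads allows a level of up to 16.1% (Wilson 95%), so these sites were not shown to be free of methylation. A CpG of chromosome 25 at 32558984 to 32558985 had 17.4% of 23 reads in the sarcoid and all of 35 reads in skin. The remaining sites of the top 5 were on chromosome 7 at 3447796 to 3447797 (14.3% in the sarcoid and 96.9% in skin) and on chromosome 8 at 10941106 to 10941107 (13.6% in the sarcoid and 95.8% in skin). Neighbours shared the difference to unlike degrees. The 3 other CpGs compared within 100 bp of the chromosome 12 pair's first site averaged 5.56% in the sarcoid and 76.5% in skin, whereas the 5 around the chromosome 8 site averaged 85.6% in the sarcoid and 88.8% in skin.

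Losing CpGs were most frequent at an intermediate to high skin level. Between 70% and 80% in skin, 3.13% of CpGs were losing CpGs (1180 of 37757, Wilson 95% interval 2.95 to 3.31), and between 80% and 90% in skin, 2.35% (1438 of 61200). Where skin was at 90% or more the share was 1.01% (917 of 90994), and it was 0.525% at 50% to 60%, where the CpG had to be almost empty in the sarcoid to enter. CpGs of 90% and over were 36.3% of those able to fall so far and 21.8% of losing CpGs. The share also depended on depth. It was 1.86% where the shallower library had 20 to 29 reads and 1.28% where it had 60 or more, and the part of sampling error in this was not tested.

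Reads that took no part in choosing a CpG gave a smaller difference of the same sign. The strands of a CpG are read in separate reads, so CpGs were also chosen on 1 strand alone and then read on the other, among 78967 CpGs with at least 20 reads per strand in both libraries. On the plus strand 463 were at least 50 points lower (mean difference -57.3 points), and their minus strands averaged 30.02% in the sarcoid and 68.3% in skin, a difference of -38.2 points (SD 18.8 over CpGs). The 430 chosen on the minus strand averaged 27.7% in the sarcoid and 66.0% in skin on the plus strand, a difference of -38.3 points (SD 19.6). The other strand was lower in the sarcoid at 424 of 463 and at 396 of 430 CpGs, and lower by at least 50 points at 26.3% and 28.4%. It was within 10 points of no difference at 53 and 55 of them. Strands share the library and the position but not the reads. Choosing on 1 strand also picks CpGs whose strands differ, and skin strands lay at least 30 points apart at 13.8% and 15.6% of the chosen CpGs. All CpGs at 50% or more in skin with 10 reads per strand differed by means of -3.57 (plus) and -3.56 points (minus). CpGs chosen as at least 50 points higher on 1 strand showed the mirror pattern. Their other strand was higher at 91.2% of 193 and 91.1% of 237, by means of 36.8 and 35.5 points. It was higher by at least 50 points at 27.5% and 22.4%.

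Losing CpGs lay close together at many places, in short runs. Another losing CpG stood within 100 bp of 1955 of the 4199 (46.6%, Wilson 95% interval 45.1 to 48.1), against 55.7% (53.3 to 58.0) of gaining CpGs, which are fewer. Of the 250349 CpGs at 50% or more in skin, 94.0% had another such CpG within 100 bp. Those not losing themselves numbered 1324 at 1 to 10 bp from a losing CpG, 1942 at 11 to 25 and 2195 at 26 to 50. A further 1500 lay at 51 to 75 bp and 624 at 76 to 100. Linked over gaps of at most 100 bp, the losing CpGs formed 2956 groups, of which 2244 were single CpGs and 712 were runs of 2 or more. There were 435 runs of 2 CpGs, 158 of 3, 91 of 4 or 5 and 28 of 6 or more. The longest run held 14 CpGs. Runs had a median span of 30 bp, and 663 (93.1%) spanned at most 75 bp, the length of a read. CpGs in such a run can be read from the same molecules and are not independent observations. Counted with both ends of each run, 78.4% of the 2494 CpGs compared in the runs were losing CpGs. The ends are losing CpGs by definition, so the share among the inner CpGs was lower and was not counted apart. For gaining CpGs the median span was 31 bp and the share counted in the same way, ends included, 75.5%. The runs of both directions were thus alike in span and in this share.

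The longest runs showed the difference along their whole length and on both strands. On chromosome 6 from 24326984 to 24327128, all 14 CpGs compared were losing CpGs, with levels of 12.5% to 28.6% in the sarcoid and 62.8% to 83.7% in skin. The mean difference of that run was -64.1 points over 10 CpGs with 10 reads per library on the plus strand and -55.1 over 8 on the minus strand. A second run on chromosome 6, from 70878779 to 70879019, held 13 losing CpGs among 17, with a mean of 13.4% in the sarcoid and 69.8% in skin. Chromosome 8 had a pair of such runs. In the one from 24191703 to 24191962, which had the widest span at 260 bp, 14 of 18 CpGs were losing CpGs and the means were 20.2% in the sarcoid and 73.1% in skin. The one from 24083045 to 24083157 held 11 of 13, with means of 23.4% in the sarcoid and 77.2% in skin. On chromosome 12 from 9281446 to 9281556, 11 of 12 CpGs were losing CpGs and the means were 10.03% in the sarcoid and 71.1% in skin.

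In all 5 runs every CpG compared had a lower level in the sarcoid, and those that missed the limit mostly started lower in skin. The lowest skin level in the wider chromosome 8 run was 28.3%, at a CpG that could not fall by 50 points. Flanks within 500 bp held 1 to 8 CpGs. At 4 of the 5 runs the flanks were also much lower in the sarcoid, with mean differences of -42.5 and -33.5 points beside the chromosome 6 runs, -39.1 beside the wider chromosome 8 run and -48.5 at the single CpG beside the chromosome 12 run. The 8 CpGs around the chromosome 8 run from 24083045 averaged 73.1% in the sarcoid and 86.9% in skin, a difference of -13.8 points against -53.8 points inside that run.

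**Figure D2:**
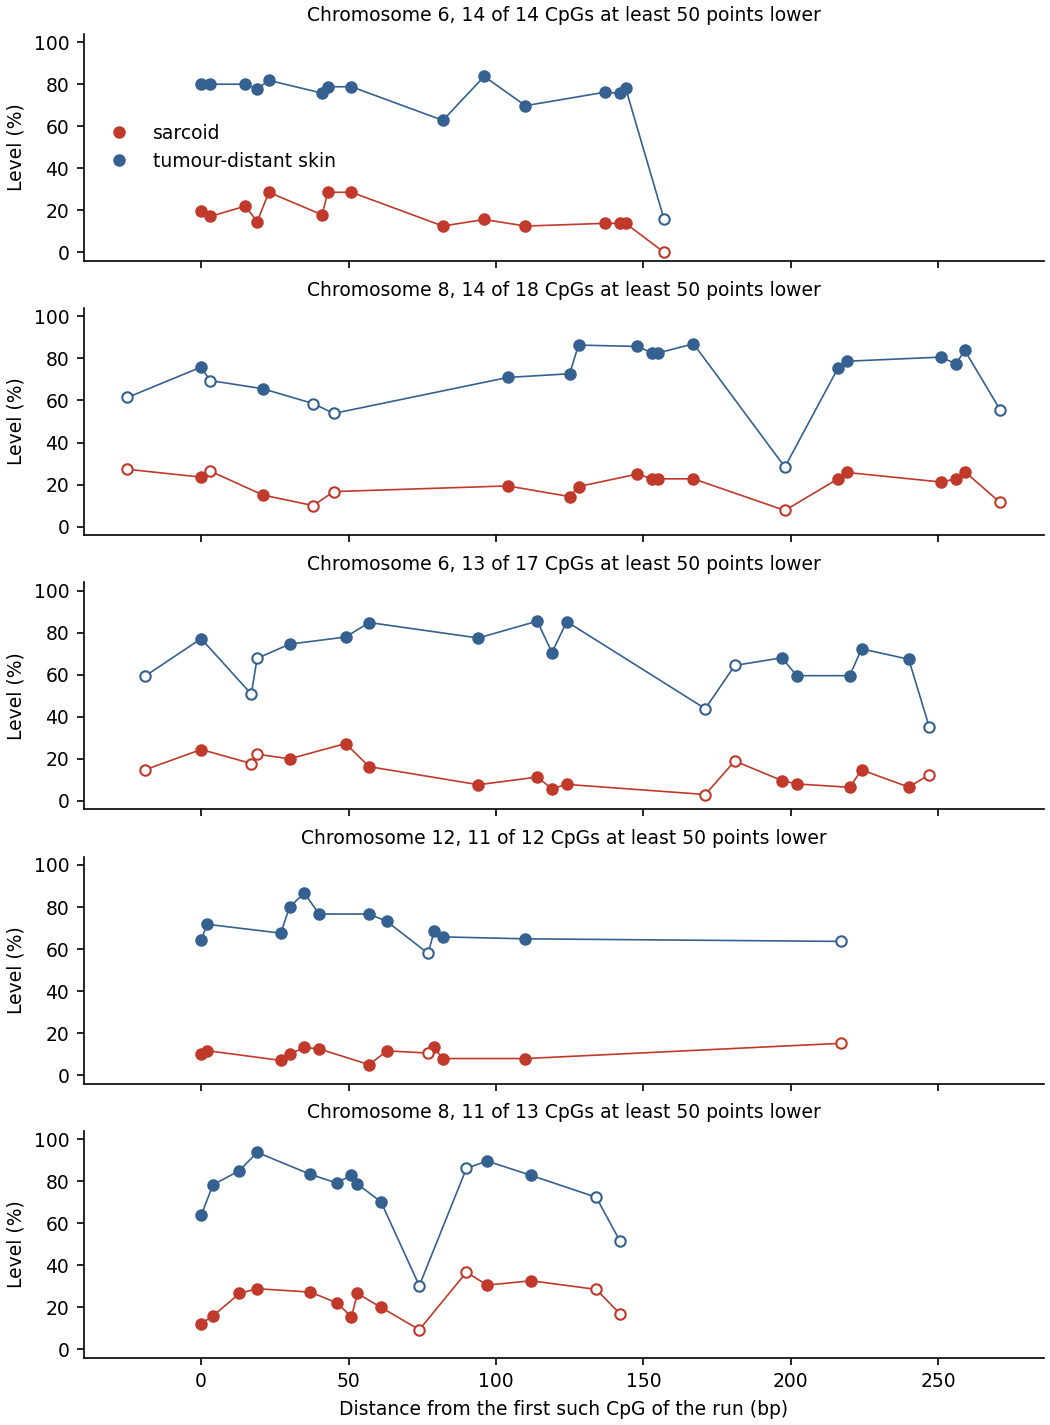
Methylation levels (%) in the sarcoid (red) and tumour-distant skin (blue) along the 5 runs with the most losing CpGs, against the distance in bp from the first losing CpG; filled points are losing CpGs and open points other CpGs with 20 reads in both libraries, up to 250 bp beyond the run. The sarcoid line stays under the skin line at every point, and open points sit mostly where the skin level dips.

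Among 1 kb tiles outside those runs, the 5 with the most losing CpGs were on chromosomes 6, 7, 12 and 21. The tile of chromosome 6 from 70862001 to 70863000 lies upstream of the second chromosome 6 run by position. All of its 11 CpGs compared were losing CpGs, with a mean of 14.8% in the sarcoid and 82.0% in skin. On chromosome 7, the tile from 724001 to 725000 had 10 of 12 (mean 22.7% in the sarcoid and 83.6% in skin) and the tile from 65696001 to 65697000 had 10 of 15 (20.9% in the sarcoid and 73.7% in skin), the last with no CpG that had 10 plus-strand reads in both libraries. On chromosome 12 from 28438001 to 28439000 the sarcoid mean was the lowest of the 5 at 3.55%, against 47.9% in skin, and 10 of 26 CpGs were losing CpGs because many others began under 50%. The tile of chromosome 21 from 2000001 to 2001000 had 9 of 13, with means of 21.9% in the sarcoid and 79.8% in skin. In these tiles too, each CpG compared was lower in the sarcoid.

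CpGs near a losing CpG, those inside runs included, were also lower in the sarcoid, the more so the nearer they were. Other CpGs within 10 bp of one had means of 40.4% in the sarcoid and 67.8% in skin, a difference of -27.4 points over 1681 CpGs, and 90.9% of them were lower. At 26 to 50 bp the difference was -18.0 points and at 101 to 200 bp, beyond the length of a read, it was -10.5 points over 1615 CpGs. It was -7.67 points at 201 to 500 bp and -4.55 points at 501 to 1000 bp. From 1001 to 2000 bp it was -2.21 points, near the -1.34 points of all 583026 CpGs. Restricted to CpGs at 50% or more in skin, the values were -29.1 points within 10 bp, -11.3 at 101 to 200 bp and -4.24 at 1001 to 2000 bp, against -4.43 for all such CpGs. Around gaining CpGs the differences had the opposite sign, with 30.1 points within 10 bp, 12.3 at 101 to 200 bp and 1.43 at 501 to 1000 bp. Restricted to CpGs at 50% or more in the sarcoid they were 36.9 points within 10 bp, 21.9 at 101 to 200 bp and 15.2 at 201 to 500 bp, against 2.69 for all such CpGs, and were thus larger in size than the -11.3 points at 101 to 200 bp and -9.50 at 201 to 500 bp around losing CpGs.

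**Figure D3:**
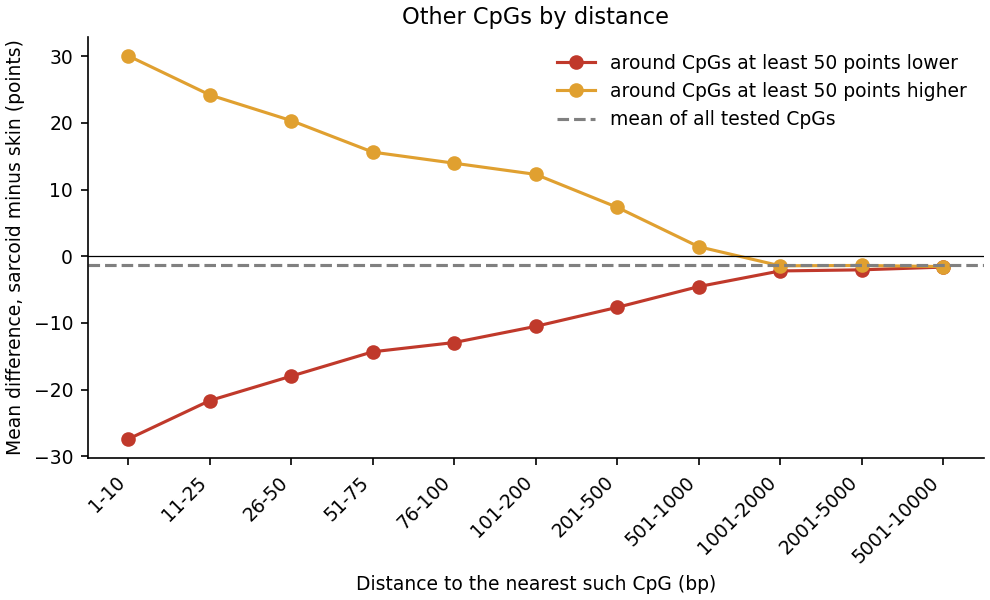
Mean difference, sarcoid minus skin, in percentage points (vertical axis) of CpGs that did not themselves change by 50 points in the given direction, by distance in bp to the nearest losing (red) or gaining (orange) CpG; the dashed line is the mean of all CpGs compared, -1.34 points. The difference shrinks with distance in both directions, and the curves meet the dashed line from about 1001 to 2000 bp on.

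By the neighbours within 100 bp that were compared, losing CpGs fell into 4 classes. Besides the 1955 with another losing CpG, 1826 (43.5%) stood alone but had at least 1 neighbour that differed by 10 points or more. A further 241 (5.74%, interval 5.08 to 6.48) stood alone among neighbours that all differed by less than 10 points, and 177 (4.22%) had no neighbour that was compared. Of the 1826, 1342 (73.5%) had a neighbour lower by at least 25 points. Counted per CpG, such a difference was seen at 6.25% of all CpGs compared and at 12.5% of those at 50% or more in skin. The 73.5% is not like these, since it counts any such neighbour among a median of 3. Per CpG at 50% or more in skin, the share was 66.2% within 10 bp of any losing CpG and 30.6% at 76 to 100 bp. The 7202 neighbours of the 1826 were lower in the sarcoid at 79.7%, with a median difference of -18.2 points. Of all CpGs compared 40.6% were lower, and of those at 50% or more in skin 54.0%. A neighbour higher by 10 points or more was present for 307 of them (16.8%). Most CpGs that stood alone past the limit thus had neighbours with a smaller difference of the same sign. A neighbour that differed by 10 points or more in either direction had placed the 1826 in their class, so a difference nearby follows partly from that definition.

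The 241 CpGs among unchanged neighbours had a median level of 29.03% in the sarcoid and 86.4% in skin, against 22.2% in the sarcoid and 80.8% in skin for those in runs. Their surroundings were mostly methylated in both tissues. For 149 (61.8%) the neighbours averaged at least 80% in skin, for 68 they lay between, and for 24 (9.96%) they averaged at most 20%. The medians of those averages were 86.2% in both the sarcoid and skin. At 195 (80.9%) the sarcoid level was further from the neighbours' level than the skin level was. This follows largely from the choice of CpGs, which were low in the sarcoid and high in skin, among neighbours that were mostly methylated. It does not show which tissue departed from its surroundings. They had few neighbours to judge by, with a median of 2 against 5 for CpGs in runs, and 69 had at least 3. The class made up 2.80% of gaining CpGs, 48 of 1717.

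The sites with the largest difference among at least 3 unchanged neighbours were on chromosomes 7, 24 and 29. On chromosome 7 at 1002861 to 1002862, 3 of 28 reads were methylated in the sarcoid and 45 of 52 in skin, while its 4 neighbours averaged 88.2% in the sarcoid and 86.2% in skin. The others on that chromosome were at 2297282 to 2297283, with 2 of 28 sarcoid reads and 18 of 23 skin reads methylated, and at 1785755 to 1785756, with 4 of 20 sarcoid reads and 20 of 22 skin reads. A CpG of chromosome 29 at 26078896 to 26078897 had 4 of 20 sarcoid reads and 35 of 40 skin reads methylated, and one of chromosome 24 at 13391591 to 13391592 had 7 of 23 in the sarcoid and 28 of 29 in skin. The sarcoid reads of the 3 sites on chromosome 7 came from 1 strand each, as did those of the chromosome 29 site, and the chromosome 24 site was read on both. Intervals of the difference by Newcombe's method had upper bounds between -55.6 and -41.5 points at these 5.

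Single-strand reading was common in this class. Reads from the same 1 strand in both libraries made up the value at 65.6% of losing CpGs among unchanged neighbours. The share was 46.7% for those alone beside a changed neighbour, 38.6% for those in runs and 61.6% for those with no neighbour compared. For gaining CpGs among unchanged neighbours it was 64.6%, so a high share was not particular to losing CpGs. Among CpGs at 50% or more in skin with no other such CpG within 100 bp and unchanged neighbours, it was 41.2%. The part of single-strand reading in the class of losing CpGs among unchanged neighbours was not tested. The 27 CpGs of the class with at least 10 reads on each strand in each library averaged 31.4% in the sarcoid and 87.8% in skin on the plus strand, and 32.3% in the sarcoid and 85.0% in skin on the minus strand, which describes them and is no check, since the reads of both strands had chosen them.

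Over all losing CpGs, 1961 (46.7%) had reads on both strands in both libraries, 912 (21.7%) on the plus strand alone and 961 (22.9%) on the minus strand alone. In the remaining 365 the libraries had unlike strands. Both strands were read at 62.7% of all CpGs at 50% or more in skin and at 53.8% of gaining CpGs, so large differences in either direction held more CpGs read on 1 strand. At the 1194 losing CpGs with 10 reads on each strand in each library, the plus strand averaged 25.5% in the sarcoid and 81.5% in skin and the minus strand 25.1% in the sarcoid and 81.1% in skin. Both strands were lower by at least 50 points at 546 of these (45.7%). A merged difference of 50 points leaves little room for strands that disagree, so the likeness of the strands here follows largely from how the CpGs were chosen. The values above from CpGs chosen on 1 strand do not share this limit.

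Losing CpGs were found in tiles of every density, at rates between 1.496% and 1.86% of CpGs at 50% or more in skin. Density was counted as the CpGs listed per 1 kb tile in either library. It depends on which fragments were read and is not the CpG density of the genome sequence. Of losing CpGs, 30.7% were in tiles of 5 or fewer CpGs, 30.3% in tiles of 6 to 10, 26.3% in tiles of 11 to 20, 11.03% in tiles of 21 to 40 and 1.64% in denser ones. CpGs at 50% or more in skin were spread in nearly the same way, with 27.7%, 33.8%, 24.4%, 12.4% and 1.84%. Their rate of losing CpGs was 1.86% in the sparsest tiles (interval 1.76 to 1.97), 1.51% at 6 to 10, 1.81% at 11 to 20, 1.496% at 21 to 40 (1.37 to 1.64) and 1.496% above 40 (1.18 to 1.89). Within skin levels of 70% to 90% the sparsest tiles had 3.06% (2.86 to 3.27) and those of 21 to 40 CpGs 2.19% (1.95 to 2.46). Once CpGs unable to fall so far were left out, the rates of the 5 density classes thus lay between 1.496% and 1.86% and did not run in 1 direction with density. Gaining CpGs, set against CpGs at 50% or more in the sarcoid, had rates of 0.669% in the sparsest tiles and 0.869% in tiles of 21 to 40.

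**Figure D4:**
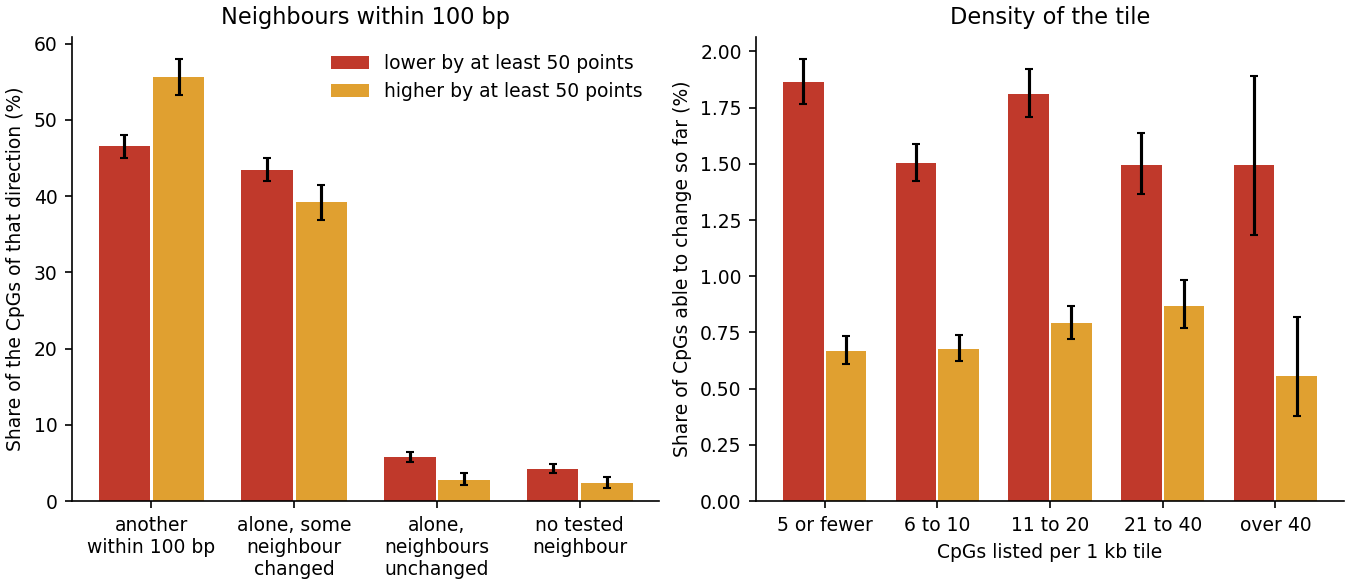
Left, share (%) of losing (red) and gaining (orange) CpGs by their neighbours within 100 bp; right, losing CpGs in % of CpGs at 50% or more in skin and gaining CpGs in % of those at 50% or more in the sarcoid, by CpGs listed per 1 kb tile. Error bars are Wilson 95% intervals, which treat neighbouring CpGs as independent and are too narrow. Of losing CpGs 46.6% have another within 100 bp, and their rates by tile density lie between 1.496% and 1.86%.

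Most tiles with a losing CpG held a single one. Losing CpGs were in 2908 of 97254 tiles (2.99%), of which 2188 (75.2%) held 1 and 64 held 5 or more. In the 1589 such tiles with at least 5 CpGs compared, a median of 16.7% of CpGs were losing CpGs and the tile means averaged 44.6% in the sarcoid and 68.9% in skin. The median tile difference was -23.3 points, and in 619 of these tiles every CpG was lower in the sarcoid. Gaining CpGs were in 1084 tiles, and 8 tiles held both kinds. Tile means thus differed by less than the losing CpGs that had picked the tiles.

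Chromosomes differed in how many losing CpGs they held. Per CpG at 50% or more in skin, the highest shares were 3.02% on chromosome 25 (316 CpGs), 2.95% on chromosome 29 (74), 2.94% on chromosome 6 (254), 2.87% on chromosome 12 (367) and 2.42% on chromosome 22 (264). The lowest were 0.723% on chromosome 23 (29 CpGs), 0.847% on chromosome 16 (61), 0.850% on chromosome 17 (38), 0.863% on chromosome 4 (54) and 0.886% on chromosome 9 (46). By number chromosome 7 led with 479, a share of 2.40% of its 19988 CpGs at 50% or more in skin, which were also the most of any chromosome. Losing CpGs outnumbered gaining ones on 30 of 31 chromosomes, the exception being chromosome 4 with 54 losing and 93 gaining.

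The chromosomes with the highest shares were among those on which the sarcoid library was deeper. Chromosomes 5, 6, 7, 12, 18, 21, 22, 25, 28 and 29, a set known from an earlier look at the same data, had a log2 ratio of sarcoid to skin reads 0.216 to 0.328 above that of the median chromosome, and the other 21 lay between -0.131 and 0.114. On these 10 the share of losing CpGs was 2.51% (2328 of 92614, interval 2.41 to 2.62) and ranged from 1.85% to 3.02%, against 1.19% (1871 of 157735, 1.13 to 1.24) and a range of 0.723% to 1.89% on the others. The ranges overlapped by chromosome 27, of the others, at 1.89% and chromosome 5, of the 10, at 1.85%. Across the 31 chromosomes, which share both libraries, Pearson's r of the share with the log2 depth was 0.84 and Spearman's rho 0.63. For the share of gaining CpGs r was 0.49 and rho 0.54. Within the 10 the share of losing CpGs did not rise with depth. It was 2.87% on chromosome 12, the least deep of them (0.216), and 2.35% on chromosome 18, the deepest (0.328). On the next deepest, chromosomes 5 (0.290) and 6 (0.288), it was 1.85% and 2.94%. The correlations over 31 chromosomes include the gap between the sets, and none was computed within a set. The 10 held 55.4% of losing CpGs, 37.0% of CpGs at 50% or more in skin and 41.9% of gaining CpGs.

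The gap between the sets was present at each depth of reading. Where the shallower library had 20 to 29 reads, 2.82% were losing CpGs on the 10 chromosomes and 1.38% on the other 21, and with 60 or more reads the shares were 1.78% and 0.801%. When every CpG was thinned to 20 reads in each library, with classes by skin level kept from all reads, the shares were 4.14% and 2.36%. Losing CpGs of the sets had similar levels, with medians of 23.3% in the sarcoid and 81.1% in skin on the 10 chromosomes and 25% in the sarcoid and 82.3% in skin on the others. They were also clustered to a similar degree, with 47.2% and 45.8% having another within 100 bp. The share of gaining CpGs was 0.839% on the 10 chromosomes and 0.660% elsewhere, so there were 3.23 losing CpGs per gaining CpG on the 10 and 1.88 on the 21.

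**Figure D5:**
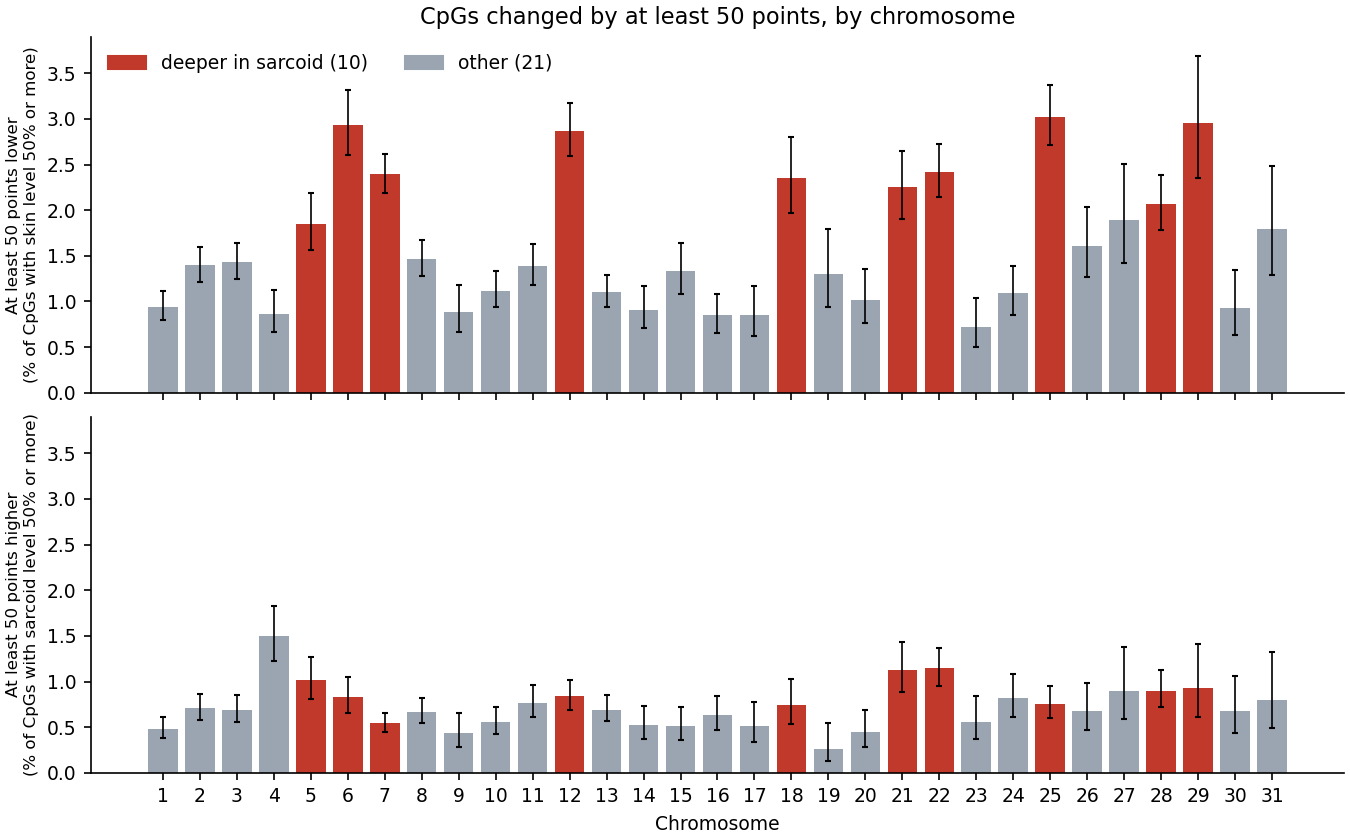
Share of CpGs at least 50 points lower in the sarcoid (top, % of CpGs at 50% or more in skin) and at least 50 points higher (bottom, % of CpGs at 50% or more in the sarcoid) by chromosome; red bars are the 10 chromosomes deeper in the sarcoid library, and error bars are Wilson 95% intervals that cover counting of CpGs only. The red bars of the top panel lie at 1.85% to 3.02% and the grey ones at 0.723% to 1.89%.

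Within chromosomes, losing CpGs were counted in windows of 1 Mb. They were present in 921 of 2254 windows (40.9%). The 101 windows with 10 or more held 2070 of them (49.3%) and 70097 (28%) of the CpGs at 50% or more in skin, so windows with many losing CpGs also had many CpGs compared. The most were on chromosome 7 from 1 to 1000000, with 77 among 2269 CpGs at 50% or more in skin (3.39%). Chromosome 25 from 36000001 to 37000000 had 72 of 1363 (5.28%), with a mean level over all CpGs compared of 52.1% in the sarcoid and 58.0% in skin. Next came chromosome 7 from 2000001 to 3000000 with 66 (3.16%), chromosome 12 from 9000001 to 10000000 with 60 (4.598%), which holds the pair of largest difference and one of the longest runs, and chromosome 8 from 24000001 to 25000000 with 57 (4.07%), which holds both chromosome 8 runs. Of the 2956 groups of losing CpGs, 750 (25.4%) had another group within 10 kb, and the median distance to the next was 48145 bp. For the fewer groups of gaining CpGs these were 13.4% and 229400 bp.

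On chromosome 1 the authors' deposited table of the comparison between the libraries could be set beside these values. It listed all 141 losing CpGs of that chromosome, with differences of skin minus sarcoid of 50 to 70.1 points, which matched those here within 0.1 points at 140 of them. The q-value in the authors' deposited table was below 0.01 at 138 of the 141, with a median of 8.67e-05 and a highest value of 0.0142. The differences and q-values rest on the same reads, so the match of differences is one of computation. Low q-values follow largely from choosing CpGs by a large difference at 20 or more reads. With 1 library per tissue they can treat only reads as replicates. The share of all CpGs of that table with a q-value below 0.01 was not counted. The authors' deposited table held 755 CpGs lower in the sarcoid by at least 50 points, and the other 614 had under 20 reads in a library.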

How the data were processed

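Per the labels, DNA of 1 sarcoid and 1 tumour-distant skin sample was sequenced by reduced representation bisulfite sequencing with 75 bp single-end reads on 1 lane each. BSMAP, FastQC and methylKit are named per the submitters' processing notes; versions, settings and the genome build are not given in the sources used here. The deposited files give, per the file headers, the read count (coverage) of each cytosine and the percent of reads showing C. The authors' deposited table gives p-values, q-values and a methylation difference (entered as a score, in points, skin minus sarcoid) for chromosome 1.

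Methylated reads were coverage times percent, rounded (further from whole than 0.0005 of the coverage at 0.543% of sarcoid and 0.567% of skin cytosines). Minus-strand positions were shifted by 1 and strands summed. CpGs with 20 reads in both libraries were compared. CpG groups link gaps of at most 100 bp, and unchanged means under 10 points. Intervals are Wilson or Newcombe 95% intervals. They cover counting error only, PCR copies are not independent molecules, and neighbouring CpGs share reads. The sites named are the 5 leading runs, tiles, CpGs, lone CpGs and chromosomes at either end by fixed rules; the 1 Mb windows were chosen after their values were seen. The CpGs, limits and chromosome set were chosen with earlier results of these data known. Genes and sequences are not given, since no genome of the build was used here. Scripts used SciPy 1.17.1, NumPy 2.4.6, pandas 2.3.3 and matplotlib 3.10.9 under Python 3.11.15 and were tested on simulated data.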

Additional observations from a re-analysis of the deposited data

How the results depend on the processing

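No paired analysis was possible because each tissue has 1 library. The number of losing CpGs was 8754 with a minimum of 10 reads and 2209 with 30, 11397 at a limit of 40 points and 1032 at 60, and 7833 when thinned to 20 reads per library. It was 1140 among CpGs read on both strands less than 30 points apart, and 1871 without the 10 deeper chromosomes. Losing CpGs per gaining CpG were 2.12 with 10 reads, 2.84 with 30, 1.99 at 40 points, 3.21 at 60, 2.02 when thinned and 1.88 without the 10 chromosomes, so losses led in each. The share with another losing CpG within 100 bp was 44.1% with 10 reads, 54.2% at 40 points, 33.2% at 60, 43.2% when thinned and, within 50 bp, 42.6%. The share alone among unchanged neighbours was 7.03% at 40 points, 4.65% at 60, 3.97% when thinned and 6.98% within 50 bp. It followed its definition most, with 2.52% when unchanged meant under 5 points and 12.6% when it meant under 20. Tiles of 5 or fewer CpGs held 34.7% with 10 reads, 26.7% with 30, 18.9% on both strands, 34.3% without the 10 chromosomes and 33.7% with density from CpGs listed in both libraries. The 10 chromosomes held 48.8% with 10 reads, 59.7% with 30, 50.6% at 40 points, 60.3% at 60 and 50.7% when thinned. Leaving out the 0.1% of CpGs with most coverage changed no value. Of 54 values, 20 stayed within the limits of the main value, which are its interval or 1.5 times a count. The causes were not tested beyond what a limit or a depth fixes by construction.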
